A study of Drosophila simulans with 12 samples.

Results

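The transcripts of the testis and of the abdomen were compared in males of a fertile Drosophila simulans line. The comparison used 6 of the 12 arrays of the series, 3 of fertile testis and 3 of fertile abdomen, each group made of replicates A, B and C. These males carried a stretch of the X chromosome from D. mauritiana, with the variant of the OdsH locus that leaves males fertile. The other 6 arrays came from a line that differs from it in about 3 Kb around exons 3 to 4 of OdsH and is sterile. They are used below to repeat the same count and, where stated, to set values of the lines side by side without a test. The males were 3 to 4 days old, and on average 150 were dissected for testis and 50 for abdomen. Testes were dissected on ice. Abdomens were separated whole from frozen flies, and the labels do not say that the reproductive tract was removed, so an abdomen sample can hold testis and male glands. Both groups come from 1 fertile line, and the labels do not say that the 3 extractions came from separate cultures.

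Each tissue was hybridised to its own Affymetrix design, both built from D. melanogaster genes, and the deposited intensities of the tables were made in different ways. Levels were therefore compared by rank. A gene was kept if it had 1 symbol on both designs, was represented by its probe set of highest mean in each table, and was given its percentile rank within each array, where 100 is the brightest gene. This kept 10756 genes, of 11982 with 1 symbol on the testis design and 10844 on the abdomen design. A gene was called higher in a tissue if all 3 of that tissue's percentiles lay above all 3 of the other's and the means differed by at least 25 percentile points. No p-value is given, since design and tissue cannot be told apart. Rank says nothing of absolute RNA, and in bulk tissue fewer cells of a type and less RNA per cell cannot be told apart.

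The testis is mostly germline. Stem cells at its tip produce spermatogonia, which divide and become spermatocytes. Spermatocytes switch on a large set of testis genes under the meiotic arrest proteins and then divide by meiosis, and the resulting spermatids build a long axoneme, reshape their mitochondria, replace histones with protamines and are separated into single sperm. Many of these steps use testis-specific copies of genes that other cells also use. The abdomen holds midgut, Malpighian tubules (the fly's kidney), fat body (its liver and fat store), oenocytes, muscle, nerves, blood cells and cuticle, beside the reproductive tract.

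The arrays of testis were close to each other, with rank correlations across genes of 0.997, while those of abdomen ranged from 0.881 to 0.902. Testis and abdomen arrays correlated at 0.442 to 0.493. Genes are not independent replicates in these values. The median SD of a gene between arrays was 0.835 percentile points in testis and 5.82 in abdomen, against a median absolute difference between the tissues of 17.7 points. Median intensities were 219.4 to 221.9 in testis and 208.4 to 222.6 in abdomen.

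One abdomen array stood apart from the others in a way that goes against its label. Yolk, eggshell and maternal transcripts are known as products of the ovary and the female fat body. Yp1, which encodes a yolk protein, had percentiles of 67.1, 99.6 and 52.4 in fertile abdomen arrays A, B and C, and intensities of 423.3, 26135.3 and 274.3. The chorion gene Cp36 had percentiles of 40.1, 98.3 and 27.1. The vitelline membrane gene Vm26Aa had percentiles of 40.8, 98.2 and 36.9, and dhd, which encodes a thioredoxin of the female germline, had 3.9, 91.3 and 2.8. For Cp36, Vm26Aa and dhd array B was high and arrays A and C were not. Yp1 was above the middle of the ranking in A and C but higher in B. So were the chorion gene Cp18 at 78.9, 97.3 and 85.3 and the vitelline membrane gene Vm34Ca at 72.9, 98.8 and 79.6. The yolk protein gene Yp2 was as well, at 72.3, 99.4 and 63.6. Of 20 eggshell and maternal genes, 18 ranked highest in array B, and their median percentile was 40.4, 85.5 and 30.7 in arrays A, B and C. Together they made up 0.0435, 0.593 and 0.0445% of the summed intensity of the shared genes. The 3 yolk genes ranked highest in B as well. No member of either list was at 0 in the abdomen arrays.

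Abdomen array B of the sterile line showed the same pattern, with all 20 eggshell and maternal genes highest there and a median percentile of 86.0, against 37.9 in array A and 34.0 in array C. In fertile abdomen, 23 genes lay above the 80th percentile and more than 20 points above both other arrays in array B, 13 of them yolk, eggshell or maternal genes. The corresponding numbers were 6 genes in array A and 2 in array C, none of them of these lists. Both B arrays are labelled male. Values without this array are given where it changes a list's count in a direction by over 1.5 times or moves a list's median by over 1.5 times. This list was chosen after these values were seen.

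**Figure D1:**
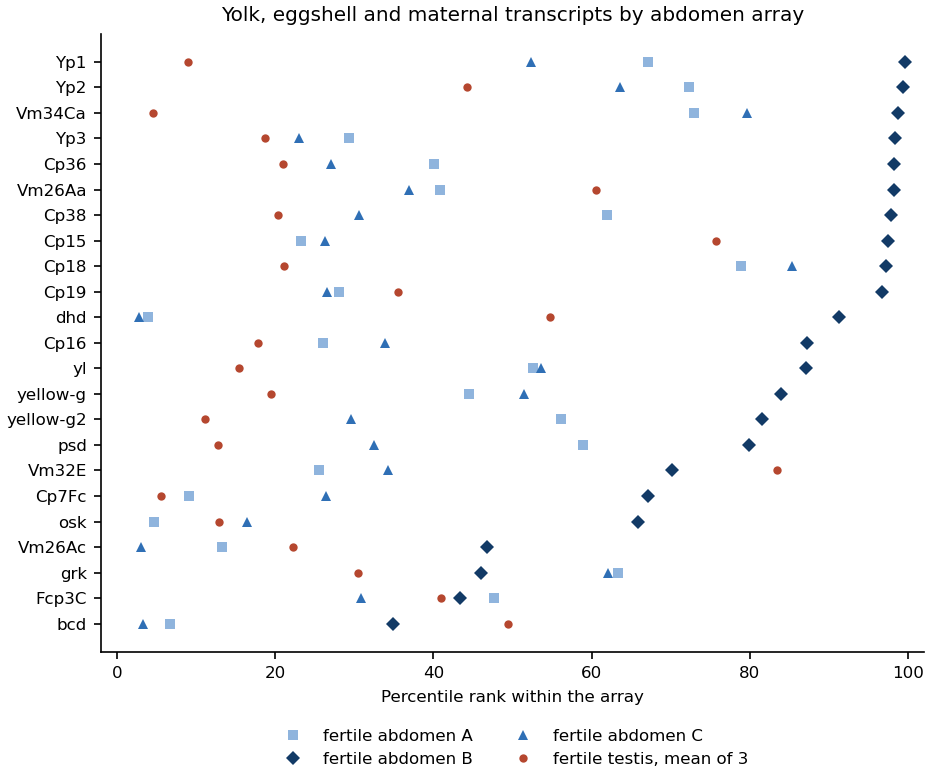
Percentile rank (horizontal axis) of the 23 yolk, eggshell and maternal genes on both designs, 1 gene per line, in fertile abdomen arrays A, B and C and as the mean of 3 fertile testis arrays. In array B 10 genes from Yp1 to Cp19 lie above the 96th percentile, while no gene does so in arrays A and C.

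Of the 10756 genes, 2008 (18.7%) were called higher in testis and 1932 (18.0%) higher in abdomen, 3940 (36.6%) in all. Without abdomen array B the counts were 1985 and 1911. The percentiles of the tissues did not overlap for 8254 genes (76.7%), 4244 (39.5%) with testis higher and 4010 (37.3%) with abdomen higher, so the 25 points set the count more than overlap did. A difference of at least 50 points was reached by 430 genes in testis and 535 in abdomen, and one of at least 75 points by 30 and 64. The balance depended on how a gene was ranked. Calls split 2561 against 1358 when ranks ran over all probe sets, and 2590 against 1326 when a gene's probe sets were averaged by their median. The share higher in testis was then 65.3% and 66.1% in place of 51.0%, and the median difference of all genes moved from 0.41 to 5.36 and 5.78 points.

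The choice of probe set bears on single genes. Among 1011 genes with several probe sets on the testis design, the 2 brightest lay a median of 16.4 points apart and 35.6% of them at least 25 points. On the abdomen design 1196 such genes had a median of 22.2 points, and 45.2% reached 25. Using the second probe set, which is dimmer by construction, 38 of 156 genes called higher in testis kept their call, and 74 of 333 called higher in abdomen when the swap was made on the design of the higher tissue. Swapped on the design of the other tissue, which widens a difference by construction, 111 of 116 calls in testis and 206 of 207 in abdomen were kept.

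**Figure D2:**
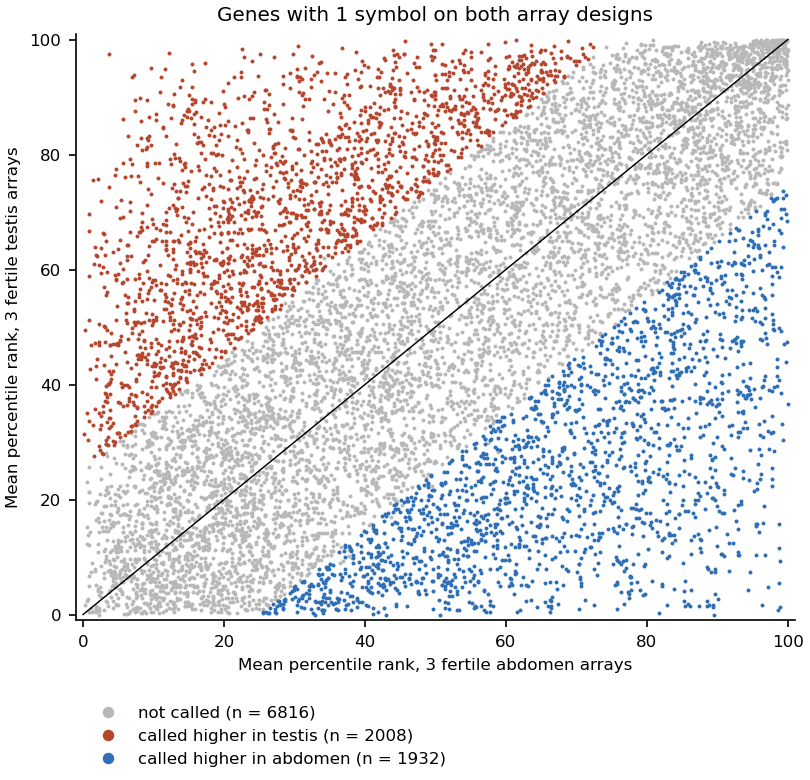
Mean percentile rank of each of 10756 genes in the 3 fertile abdomen arrays (horizontal axis) and in the 3 fertile testis arrays (vertical axis), coloured by call, with the line of equal rank. The called genes, 2008 above and 1932 below, lie outside a band of 25 points around the line, and the upper right corner is filled by genes bright in both tissues.

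The 1076 brightest genes of each tissue were compared, and 451 of them (41.9%) were the same. Testis had 133 genes among its brightest 1076 whose abdomen mean was under the 50th percentile, and abdomen had 179 of the opposite kind. The genes with the highest lowest value over the 6 arrays were CG18628, the ribosomal protein genes RpS20, RpL10Ab and RpS26, and Mst57Da, a male accessory gland transcript. Each was at or above the 99.6th percentile on every array. A gene known only by a CG or CR number made up 41.3% of all shared genes, 47.9% of those called higher in testis and 43.3% of those called higher in abdomen. The authors' detection calls were present on all 3 fertile testis arrays for 63.4% of all genes, 76.9% of those called higher in testis and 43.0% of those called higher in abdomen. Of the genes called higher in testis, 285 were present on none of these arrays.

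The widest difference in favour of testis was that of CAH13, of the carbonic anhydrase family. Its percentiles were 97.4, 97.4 and 97.5 in testis and 2.3, 6.1 and 2.9 in abdomen, at intensities of 4579.55, 4547.79 and 4591.63 in testis and 13.3, 27.4 and 15.9 in abdomen. Tom7, a small subunit of the mitochondrial import pore, followed at 94.0, 93.5 and 94.4 against 4.9, 14.3 and 2.2. CG1958, known only by its number, had 93.7, 93.5 and 93.4 against 7.8, 4.7 and 8.1. None of these groups overlapped. CG13670 and CG42633, both 85.4 points higher in testis, ranked above the 94th percentile there although called present on no fertile testis array. CG16782 (83.2), CG8508 (82.5), Tengl4 (82.0), a testis relative of endonuclease G, CG17944 (81.7) and CG32201 (80.5) completed the first 10. Their abdomen arrays varied more than those of testis, as with CG8508 at 25.4, 5.8 and 1.9.

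The widest differences in favour of abdomen included muscle and metabolic genes. CG16826 had percentiles of 0.8, 0.2 and 1.3 in testis and 98.2, 98.7 and 98.8 in abdomen. UGP, the enzyme that makes UDP-glucose for glycogen, had 0.3, 0.9 and 2.8 against 98.9, 98.9 and 98.8. TpnC41C, a troponin C of muscle, had 3.9, 5.3 and 7.2 against 98.7, 98.9 and 98.8, and the flight muscle gene fln (flightin) had 11.1, 6.2 and 10.7 against 98.6, 99.2 and 99.0. These genes sat at opposite ends of the ranking in the tissues, with no overlap. CG13060 (-94.7), CG13678 (-92.4), Spase22-23 (-90.1), a subunit of the signal peptidase, CG33203 (-88.0) and Or22c (-87.7), an odorant receptor, were of similar size. The width for CG33203 depended on the probe set. On the abdomen design its brightest probe set lay 73.3 points above the next brightest. Acp53C14b, an accessory gland protein gene, was at -89.4 in the fertile line but at 6.2 in the sterile line. UGP and Spase22-23 were called present on 0 and 33% of fertile testis arrays, although most cells use both enzymes.

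**Figure D3:**
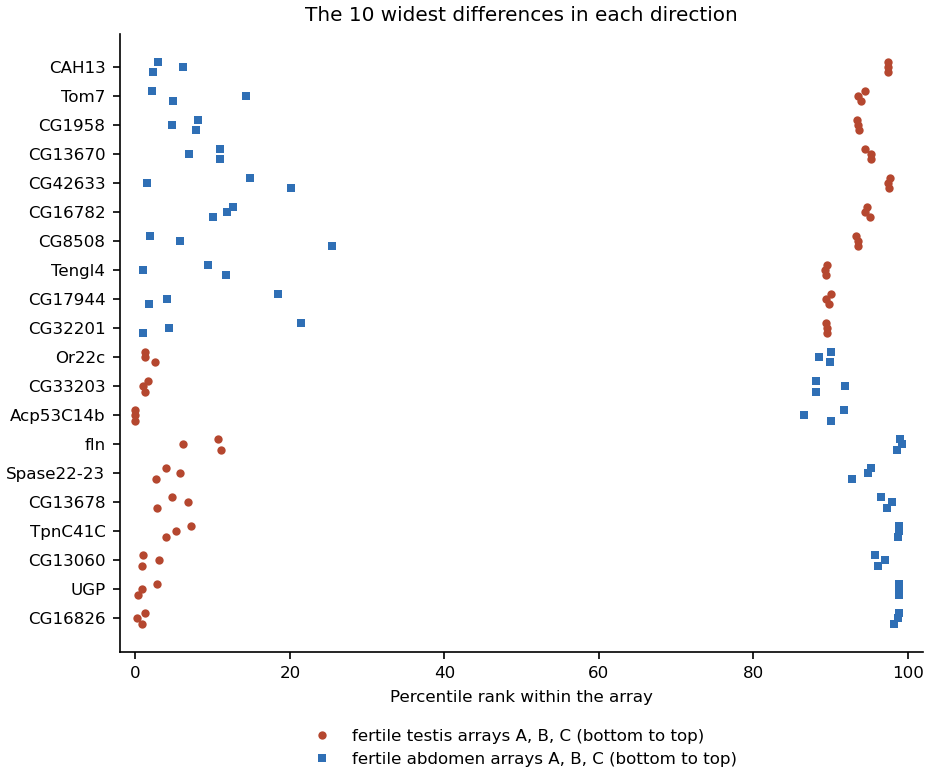
Percentile rank within each array (horizontal axis) of the 10 genes with the widest call in each direction, with 3 testis points (circles) and 3 abdomen points (squares) per gene. For all 20 genes the tissues are separated by a wide gap, and the abdomen points of the upper 10 genes spread more than their testis points, up to 25.4 for CG8508.

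Genes of sperm formation ranked higher in testis. Over the testis lists together, 65 of 163 genes were called higher in testis and 7 higher in abdomen, where 18.7% and 18.0% of all genes were. Their median difference was 16 points, against 0.4 over all genes. These values for all genes are the background for each list below. Since the abdomen samples can hold testis, their level in abdomen is not that of a body without germline. The stages differed in how far apart the tissues were.

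Of 10 genes of germline stem cells and spermatogonia, 3 were called higher in testis and 2 in abdomen, with a median of 9.6 points, or 5.7 without array B. bgcn, which drives spermatogonia out of division together with bam, had percentiles of 82.2, 82.0 and 83.5 in testis and 17.3, 24.2 and 24.2 in abdomen. hts, an adducin of the fusome, had 54.8, 55.3 and 56.3 against 3.4, 1.9 and 4.5, and otu differed by 39.6 points. The germline helicase gene vas went the other way, at 5.9, 5.6 and 4.4 in testis and 37.4, 36.3 and 26.4 in abdomen, although it was called present on all 3 testis arrays. ovo, a germline transcription factor gene, differed by -29.6 with abdomen percentiles of 56.1, 22.5 and 14.2.

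Meiotic arrest genes, which encode the testis TAFs and the tMAC complex that transcribe spermatocyte genes, had 9 of 14 members called higher in testis and none in abdomen (median 33.6). achi, a homeodomain protein gene of this class, had 79.6, 77.9 and 77.7 in testis and 6.2, 7.0 and 7.9 in abdomen. It was called present on no fertile testis array. topi, a zinc finger protein gene, had 79.9 on each testis array and 26.8, 20.9 and 11.6 in abdomen. aly had 64.7, 65.7 and 65.8 against 50.0, 19.1 and 20.1, and comr and wuc were also called. Of the testis TAFs, can differed by 41.7 points, Taf12L by 37.4, nht by 34.0 and sa by 34.0, all called. The fifth, mia, was not called, at 18.0, 21.8 and 24.0 in testis and 10.1, 28.8 and 42.4 in abdomen, a difference of -5.8.

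Of 13 genes of male meiosis, 7 were called higher in testis and 1 in abdomen (median 26.2). sub, a kinesin of the meiotic spindle, had 82.0, 81.5 and 82.2 in testis against 10.6, 7.7 and 21.3. Rbp4, an RNA-binding protein gene of spermatocytes, had 80.2, 80.9 and 80 against 21.1, 12.9 and 20.7. twe, the meiotic Cdc25 phosphatase, ranked low in testis itself, at 27.5, 30.0 and 28.2, but lower in abdomen at 2.3, 1.2 and 3.7. The RNA-binding gene bol was bright in both by its brightest probe sets, with 96.8, 96.8 and 96.6 against 96.1, 92.4 and 97.2. Its 2 brightest probe sets lay 77.2 points apart on the testis design and 61.1 on the abdomen design. CycB, a mitotic and meiotic cyclin, was the exception, at 43.4, 46.7 and 39.0 in testis and 80.8, 95.2 and 84.2 in abdomen. Its call stood without array B. CycB3, also a cyclin, had 15.2, 58.5 and 8.4 in abdomen, with array B high, and was called higher in testis (36.4).

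Spermatid genes were near the top of the testis ranking, and their median rank in abdomen was also high. For genes near the top in both tissues, ranks leave little room for a difference. The 16 genes of spermatid chromatin and structure had a median percentile of 98.9 in testis and 86.2 in abdomen, with 6 called higher in testis, none in abdomen and a median difference of 12.0. djl, a relative of the sperm tail gene don juan, had 86.7, 86.3 and 86.6 against 8.2, 17.3 and 2.8. Mst77F, which packs sperm DNA, had 99.3, 99.2 and 99.3 against 56.1, 60.1 and 56.2, and Mst33A differed by 53.2. Mst33A was called present on no fertile testis array. The sperm tail gene Mst87F, with testis percentiles of 99.3, 99.3 and 99.4, had 98.3, 98.3 and 98.5 in abdomen and was not called. The list made up 0.917 to 0.921% of the summed intensity of shared genes in testis and 1.06 to 1.45% in abdomen, on scales that differ between the tables. Of these 16 genes 15 had a higher mean percentile in testis.

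The cup and comet transcripts, which are transcribed after meiosis and lie at the spermatid tips, had 6 of 12 called higher in testis and none in abdomen (median 24.6). p-cup had 69.8, 72.9 and 69.9 in testis and 3.2, 3.3 and 7.4 in abdomen, and d-cup had 78.8, 78.5 and 78.5 against 45.6, 16.5 and 28.5. Axoneme and sperm motility genes had 9 of 19 called higher in testis and none in abdomen (median 23.7). hmw (hemingway), a gene of flagellum movement, had 91.6, 91.4 and 92.0 against 13.2, 5.2 and 27.8. Tektin-A, a filament protein of the axoneme, had 91.5, 90.7 and 90.4 against 29.9, 50.3 and 26.9. The sperm tubulin betaTub85D had 98.6, 98.6 and 98.5 against 73.5, 66.8 and 72.1.

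Of 12 testis-specific proteasome subunits 7 were called higher in testis and none in abdomen, with the largest median of the lists, 34.3. Prosbeta2R1 had 74.2, 73.7 and 74.6 against 14.4, 8.6 and 14.7, and Prosalpha4T1 had 83.1, 84.7 and 84.8 against 29.8, 34.3 and 24.2. Prosalpha4T1 was called present on no fertile testis array. Testis paralogs of mitochondrial proteins had 10 of 23 called higher in testis and 1 in abdomen (median 17.2). tomboy20, a testis copy of an import receptor, had 94.7, 94.6 and 94.6 against 44.7, 24.6 and 46.6, and ttm3, a testis copy of an import motor gene, had 90.4, 90.8 and 91.0 against 65.6, 13.5 and 51.8. Tim17a2 was the exception at 6.3, 9.3 and 8.2 against 72.3, 61.7 and 71.4.

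Spermatid individualization gives each sperm, until then joined to its sisters, a membrane of its own. Genes of this step had 2 of 14 called higher in testis and 1 in abdomen (median 8.8). Dark, the apoptosome gene that activates caspases there, had 64.6, 64.9 and 64.6 against 9.2, 22.3 and 9.2, and the translational regulator orb2 differed by 34.4. nsr went the other way, at 23.0, 18.5 and 17.5 against 73.6, 76.3 and 71.7. The calls of Dark and nsr depended on the probe set. The 2 brightest lay 49.0 points apart for Dark on the testis design and 66.9 for nsr on the abdomen design, beside tissue differences of 51.1 and -54.2. The 3 sperm leucyl aminopeptidases, abundant sperm proteins, were bright in both tissues, S-Lap7 at 99.9 on each testis array and 96.8, 96.8 and 97.5 in abdomen, and none was called. Their median difference was 2.9 points, or 1.9 without array B.

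The piRNA pathway, which silences transposons in the germline, had 6 of 17 genes called higher in testis and 1, vas, in abdomen (median 11.9). krimp had 76.5, 76.1 and 76.7 against 0.7, 11 and 1.7. Hen1, which methylates piRNA ends, had 67.8, 67.7 and 65.3 against 23.5, 6.6 and 2.5. piwi was at 48.2, 48.0 and 50.6 against 25, 58.9 and 14.8, overlapping because of array B, and was not called. Genes of the somatic cells of the testis were not separated, with 0 of 12 called higher in testis and 2 in abdomen. Their median was -4.1, and -0.5 without array B, but between 4.0 and 7.4 under 4 other ways of choosing or ranking probe sets. zfh1, a cyst stem cell factor also used in muscle and fat body, had 11.6, 12.4 and 12.2 against 36.7, 35.5 and 46.5, and the receptor gene Egfr differed by -50.2. The hub ligand gene upd1 was near the bottom of testis at 3.2, 1.3 and 2.1. Of the Y-linked fertility genes listed, 0 were found on both designs.

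**Figure D4:**
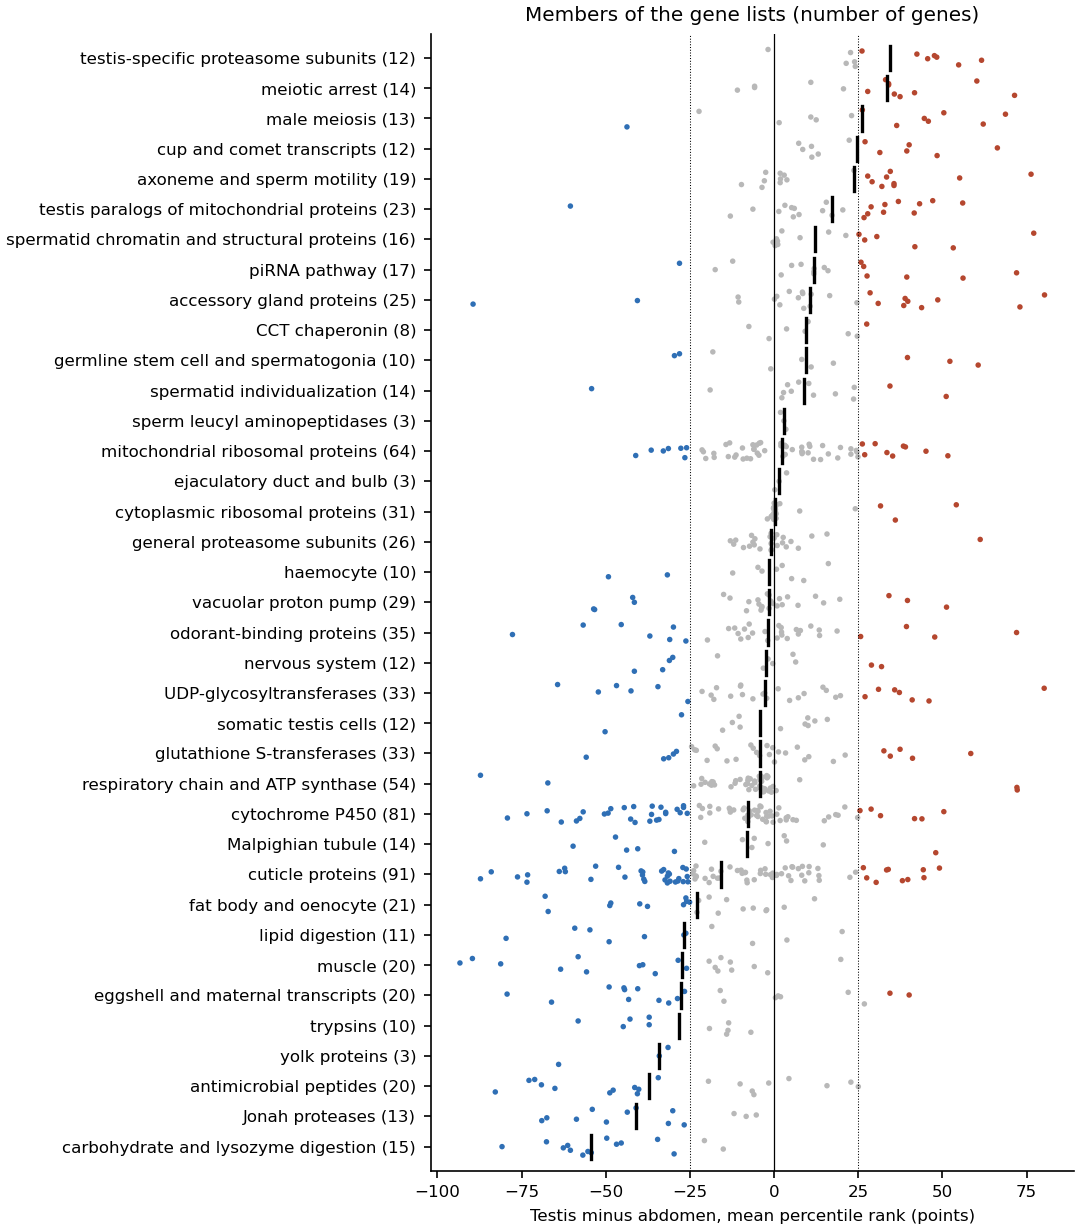
Testis minus abdomen difference in mean percentile rank (horizontal axis, in points) for every gene of the lists with at least 3 genes, 1 point per gene, red if called higher in testis, blue if called higher in abdomen and grey if not called. Black bars mark list medians and dotted lines 25 points in each direction. Medians run from 34.3 for the testis-specific proteasome to -54.3 for carbohydrate and lysozyme digestion, and those of somatic testis cells, Malpighian tubule, nervous system, haemocytes, glutathione S-transferases, UDP-glycosyltransferases, odorant-binding proteins, general proteasome and mitochondrial ribosome change sign under at least 1 alternative.

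Pairs of a testis gene and its more general relative carried this pattern gene by gene. Of 33 pairs listed, 26 were on both designs. In 21 of these the testis member had the larger testis minus abdomen difference, and in 5 the smaller. The median difference was 23.6 for the testis members, of which 11 were called higher in testis and none in abdomen, and -1.6 for the general members, of which 2 were called each way. For the tubulin pair, betaTub85D differed by 27.8 and betaTub56D by -0.7. The proteasome subunit Prosbeta4R2 differed by 47.6 and Prosbeta4 by -5.9, and Prosbeta5R1 by 42.4 and Prosbeta5 by -12.0. can differed by 41.7 and its relative Taf5 by -45.6, and nht by 34.0 and Taf4 by -33.1. The 2 brightest abdomen probe sets of Taf4 lay 26.5 points apart.

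In the respiratory chain, COX7AL differed by 41.6 and COX7A by -1.1, COX4L by 17.2 and COX4 by -2.7, and COX5BL by 7.4 and COX5B by -3.2. Of the mitofusins, which fuse mitochondria, the spermatid gene fzo differed by 32.9 and the general Marf by 46, one of the 5 exceptions. Marf was called present on no fertile testis array. The ATP synthase pair was the other way round by the most. ATPsynbeta had percentiles of 97.4, 97.5 and 97.3 in testis and 11.6, 27.9 and 35.9 in abdomen, while ATPsynbetaL had 78.6, 79.0 and 78.3 against 90.9, 91.6 and 92.4. alphaKap4 with Kap-alpha1, Rpt4R with Rpt4 and tomboy40 with Tom40 were the remaining exceptions. Relatives that are close in sequence can share probes, which was not tested.

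**Figure D5:**
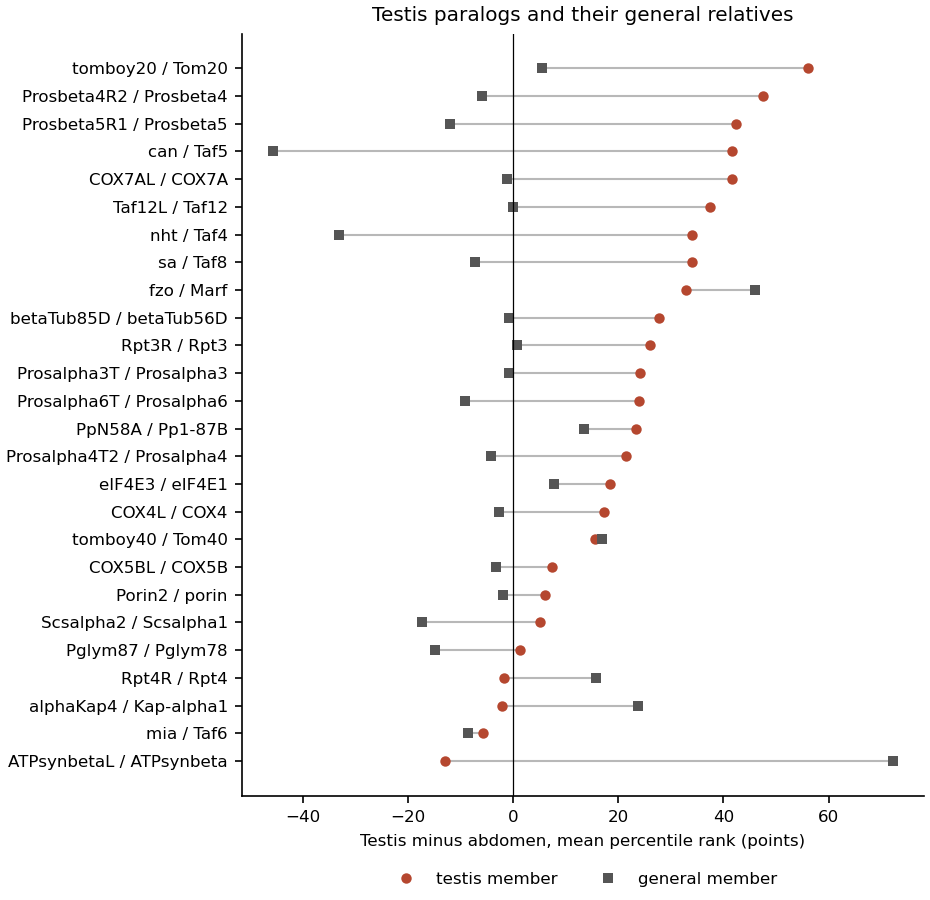
Testis minus abdomen difference in mean percentile rank (horizontal axis, in points) for 26 pairs of a testis gene (circles) and a general relative (squares), joined by a line. The circle lies to the right in 21 pairs, and ATPsynbetaL with ATPsynbeta is the widest pair of the other 5.

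Most listed transcripts of the male glands were bright in the testis samples, and most of those of the accessory gland ranked higher there than in abdomen. The accessory gland makes seminal proteins, and 21 of its 25 genes had a higher mean percentile in testis. Of these 25 genes 9 were called higher in testis and 2 in abdomen, with median percentiles of 94.2 and 76.6. Acp36DE, needed for sperm storage in the female, was at 100 on each testis array and at 55.5, 61.2 and 67.7 in abdomen. Spn28F, a serpin gene, had 95.7, 95.6 and 96.0 against 12.9, 17.3 and 16.3, and Acp29AB, a lectin gene, 87.6, 88.1 and 88.1 against at most 27.5. The sex peptide gene SP, which changes the female's behaviour after mating, had 99.7, 99.6 and 99.6 against 98.9, 98.7 and 99.1. Acp95EF was called the other way, by -40.6. Some members ranked low in both tissues. The marker gene Acp26Aa had 12.2, 15.3 and 15.5 in testis and 0.5, 16.2 and 0.1 in abdomen. Acp63F had 10.1, 13.3 and 12.1 against 25.6, 16.8 and 24.4, and neither was called. The list made up 1.08 to 1.09% of the summed intensity of shared genes in testis and 0.773 to 0.954% in abdomen. Of the 25 genes 23 were called present on all 3 testis arrays.

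The 3 genes of the ejaculatory duct and bulb were also high in both tissues, Ebp at 98.5, 98.6 and 98.7 in testis and 98.4, 98.5 and 98.3 in abdomen. These glands lie next to the testis. Their part in the testis results was not tested.

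Digestive enzymes of the midgut ranked higher in abdomen. Of 49 genes in 4 lists 35 (71.4%) were called higher in abdomen and none in testis, where 18.0% and 18.7% of all genes were. Their median difference was -41.0, against 0.4 over all genes. Of the 13 Jonah proteases 10 were called. Jon44E had 21.2, 21.1 and 18.5 in testis and 90.8, 86.3 and 90.8 in abdomen, and Jon65Aii had 23.0, 25.2 and 25.1 against 88.3, 92.7 and 94.8. Of 10 trypsins 5 were called. lambdaTry had 34.5, 36.2 and 35.5 against 93.3, 92.9 and 94.7, while alphaTry, at 93.0, 93.1 and 93.1 in testis and 100 on each abdomen array, was not called.

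Maltases, amylase relatives and lysozymes had 13 of 15 called and the lowest list median, -54.3. The maltase gene Mal-A4 had 5.7, 6.8 and 11.2 against 86.8, 90.0 and 89.3. Mal-A1 had 39.8, 37.2 and 38.4 against 99.3, 99.0 and 98.7. Of 11 genes of lipid digestion 7 were called, among them Npc2d, a sterol-binding protein gene, at 19.3, 21.2 and 15.2 against 77.8, 78.0 and 77.6. The median of this list was 39.2 in abdomen array B, against 77.8 in A and 77.5 in C. Without array B 8 were called higher in abdomen and 1 in testis.

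Gut transcripts were not absent from the testis samples. The Jonah proteases made up 0.102 to 0.103% of the summed intensity of shared genes there and 1.94 to 2.20% in abdomen, and 8 of the 13 were called present on all testis arrays. Of the 13 Jonah proteases 12 had a lower testis minus abdomen difference in the sterile line, at -98.7 for Jon25Bi against -26.7 in the fertile line and -54.8 for Jon65Aiv against -5.3. The exception was Jon66Cii, at -28.3 against -43.6. That contrast between the lines was not tested here.

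Muscle genes had 11 of 20 called higher in abdomen and none in testis (median -27.3). Their median percentile was 98.8 in abdomen and 64.6 in testis, and 17 were called present on all testis arrays. The testis sheath is itself muscular. TpnC4, a troponin C, had 2.2, 1.7 and 1.2 in testis and 81.0, 80.3 and 87.4 in abdomen. Mlc2, the myosin regulatory light chain, had 35.6, 36.6 and 37.6 against 100 on each abdomen array, and the flight muscle actin Act88F had 43.4, 45.6 and 42.9 against 99.7, 99.8 and 99.7. Why transcripts known from flight muscle were bright in samples labelled abdomen was not tested. The list made up 3.43 to 3.69% of the summed intensity in abdomen and 0.218 to 0.22% in testis.

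Fat body and oenocyte genes had 10 of 21 called higher in abdomen and none in testis (median -22.9). Apoltp, which loads lipids onto the blood lipoprotein, had 16.2, 19.6 and 16.3 against 84.3, 84.2 and 84.9. svp, a nuclear receptor gene of oenocytes and heart, had 11.4, 8.8 and 11.8 against 85.5, 75.8 and 74.7, and the perilipin gene Lsd-1 differed by -48.8. Fbp1, a larval serum protein receptor, ranked at 37.2, 37.7 and 32.5 in testis and 34.7, 44.7 and 46.6 in abdomen and was not called. Of 14 Malpighian tubule genes 5 were called higher in abdomen and 1 in testis (median -8.0, but 0.2 with ranks over all probe sets and 0.7 with the median of probe sets). Lkr, the receptor of the diuretic hormone leucokinin, had 12.6, 13.8 and 13.9 against 74.9, 73.2 and 71.4. Best2, of the bestrophin chloride channels, was higher in testis by 48.0.

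The list of immune peptides had 11 of 20 genes called higher in abdomen and none in testis (median -37.3). It also holds peptidoglycan recognition protein genes, of which PGRP-SB1 (-71.1) and PGRP-SC2 (-34.4) were among those called and PGRP-SB2 was not. The bomanin gene BomS2 had 3.0, 1.2 and 3.0 against 84.8, 85.3 and 85.6. Mtk (metchnikowin), an antifungal peptide gene, had 24.0, 23.3 and 21.2 against 91.6, 99.1 and 96.1, and DptB, a diptericin gene, had 2.7, 9.9 and 9.9 against 61.1, 97.1 and 71.8, highest in array B. The antifungal peptide drosomycin gene Drs was not called, at 60.3, 61.0 and 60.4 against 71.5, 75.3 and 65. Without array B the counts of this list were 11 in abdomen and 2 in testis. Of 10 haemocyte genes the prophenoloxidases PPO1 (-49.2) and PPO2 (-31.7), enzymes of melanin formation, were called higher in abdomen and none in testis. The median of this list was -1.4, but 1.4 without array B and 4.3 with ranks over all probe sets. PPO2 was at 7.2 when the median of its probe sets was taken. The haemocyte receptor gene eater ranked low in both tissues.

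Of 12 genes of the nervous system 4 were called higher in abdomen and 2 in testis (median -2.5, and -12.0 without array B). The median changed sign with ranks over all probe sets or with the median of probe sets, to 6.9 under both. ChAT, which makes acetylcholine, had 27.1, 27.4 and 24.3 against 70.9, 65.6 and 66.7, but its difference was 2.0 without probe sets that may hit several transcripts. VGlut, the glutamate transporter of motor neurons, was called higher in testis, at 61.8, 58.8 and 58.6 against 20.7, 37.3 and 25.5. Its 2 brightest probe sets on the testis design lay 35.3 points apart, more than its difference of 31.9 between the tissues. The pan-neural gene elav ranked low in both, at 18.2, 11.4 and 16.1 in testis and 25.2, 4.0 and 17.8 in abdomen.

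Large families of the body surface and of detoxification went both ways, with more calls in abdomen for cuticle proteins and cytochrome P450s. Cuticle proteins had 33 of 91 called higher in abdomen and 10 in testis (median -15.8). Cpr49Ae had 7.0, 7.3 and 8.0 against 91.5, 96.2 and 96.3. TwdlN, of the Tweedle family, went the other way at 65.7, 65 and 64.1 against 16.9, 18.3 and 12.4, but was called present on no testis array. Cytochrome P450 genes had 27 of 81 called higher in abdomen and 6 in testis (median -7.8), with Cyp313a1 at 11.3, 15.4 and 10.3 against 92.5, 90.6 and 91.6 and Cyp4p3 at 66.5, 66.7 and 67.4 against 6.7, 20.8 and 22.

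Of 33 glutathione S-transferases 5 were called each way (median -4.3, but 0.6 with ranks over all probe sets and with the median of probe sets). GstE14 was higher in testis by 58.4 and GstD8 differed by -55.8. Of 33 UDP-glycosyltransferases 7 were called higher in testis and 6 in abdomen (median -2.8, -1.2 without array B, and 1.1 with ranks over all probe sets). Ugt37B1 had 87.5 on each testis array and 10.8, 6.5 and 4.5 in abdomen. Of the genes named in this paragraph, GstE14, Ugt37B1 and Obp57c were called present on no fertile testis array. Of 35 odorant-binding proteins 4 were called higher in testis and 7 in abdomen (median -1.9, -1.0 without array B, and 1.8 with ranks over all probe sets), with Obp57c at 81.2, 80.7 and 82.8 against 4.3, 13.9 and 10.7 and Obp56d at 21.1, 18.6 and 17.0 against 97.3, 96.3 and 96.2.

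Yolk and eggshell genes were called in abdomen, in part through array B. All 3 yolk genes were called higher in abdomen with array B and only Yp1 without it, the differences of Yp2 and Yp3 moving from -34.1 to -23.6 and from -31.5 to -7.4. Of the 20 eggshell and maternal genes 11 were called higher in abdomen and 2 in testis with array B, and 8 and 4 without it. The vitelline membrane gene Vm34Ca was called either way, at 6.8, 4.1 and 2.4 in testis and 72.9, 98.8 and 79.6 in abdomen. The median of the list moved from -27.7 to -12.2.

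Genes that most cells use sat high on the ranking of both tissues, where a call of 25 points is mostly out of reach. Over 6 such lists the median percentile was 86.8 in testis and 91.9 in abdomen, and 32 of 212 genes (15.1%) were called in either direction, against 36.6% of all genes. This low share does not show that they were alike. Cytoplasmic ribosomal protein genes were at a median percentile of 99.4 in testis and 99.3 in abdomen, with 3 of 31 called higher in testis. They made up 2.15 to 2.17% of the summed intensity of shared genes in testis and 5.56 to 6.27% in abdomen, on scales that differ between the tables. RpS29 was one of the 3 called, at 99.8 on each testis array and 36.9, 45.0 and 55.1 in abdomen. Mitochondrial ribosomal protein genes had 9 of 64 called higher in testis and 7 in abdomen (median 2.3, but -3.4 among genes at or above the 50th percentile in a tissue). General proteasome subunits had 1 of 26 called, Rpn2, at 94.3, 94.3 and 94.6 against 27.6, 25.6 and 46.4 (list median -0.9, but 0.6 with ranks over all probe sets and with the median of probe sets). The vacuolar proton pump, which acidifies organelles and drives tubule secretion, had 3 of 29 called higher in testis, such as Vha14-2 (51.2), and 4 in abdomen, such as Vha100-5 (-53.6). CCT7, of the chaperonin that folds tubulin and actin, was called higher in testis by 27.5. It was 1 of 8 subunits called, and 2 were called without array B. The list median was 9.6, with 6 of the 8 higher in testis.

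Genes of the respiratory chain and ATP synthase were rarely called, although most of them ranked higher in abdomen. Only 4 of 54 genes were called, 2 each way, but 50 had a higher mean percentile in abdomen, with list medians of 98.9 in abdomen and 93.3 in testis. These genes made up 9.94 to 10.1% of the summed intensity of shared genes in abdomen and 1.73 to 1.74% in testis. The intensities of the tables were made in different ways, so these shares are set side by side and not tested. The called genes were ATPsynbeta and COX7C (72.1) in testis, and sun (-87.2) and ND-B12 (-67.2) in abdomen. For ATPsynbeta the 2 brightest testis probe sets lay 77.0 points apart. sun, a small subunit of the ATP synthase, had 12.5, 8.8 and 13.5 in testis and 98.7, 98.7 and 99.0 in abdomen. Single members thus lay far from their own complex on one design.

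OdsH, the homeobox gene whose variant defines the line, ranked low in both tissues, at 30.9, 23.6 and 30.2 in testis and 17.0, 8.4 and 3.4 in abdomen, and was not called. Its paralog unc-4, a homeobox gene of motor neurons, had 3.3, 6.6 and 5.0 in testis and 32.7, 43.8 and 37.7 in abdomen and was called higher in abdomen. Both were called present on no fertile testis array.

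The same rule on the sterile arrays called 2025 genes (18.8%) higher in testis and 1918 (17.8%) in abdomen. Of the fertile calls, 1622 of 2008 (80.8%) were called the same way in testis and 1586 of 1932 (82.1%) in abdomen, while 3 and 2 were called the opposite way. As a share of the sterile calls, these were 80.1% and 82.7%. The sterile arrays used the same designs and probe sets, so they repeat the choice of probe set and do not check it. Over both directions the shared part was 81.4%, and 81.2% without the B abdomen arrays of both lines.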

How the data were processed

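Males' testis and abdomen RNA was hybridised to 1 Affymetrix design per tissue. The authors deposited intensities, on a linear scale. MAS5 is named per the submitters' processing notes, but 21 shared genes have a fertile testis intensity below 0, so the method for testis is not given in the sources used here. The percent of fertile testis arrays with a present call came from the authors' deposited table, where 12 columns of single arrays were not used. Abdomen detection calls were not used here. Depth does not apply to arrays, whose number limits the precision.

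Symbols came from the platform annotation. Of 18769 testis probe sets 13647 had 1 symbol, and of 13966 abdomen probe sets 12443, with 44 controls left out. The probe set of highest mean over the 6 arrays of its table stood for a gene. Ranks, calls and figures were computed with Python 3.11.15, pandas 2.3.3 and numpy 2.4.6, and the calls were checked on simulated data. Both simulated tissues were built from the same abdomen values, so the check did not cover differences between the designs. No test was run across the tables, which were normalized separately. Replicate letters did not pair the samples, with correlations of their deviations of -0.003, 0.008 and -0.001. None of the symbols matched the D. simulans gene table, so no chromosome or sequence is given.

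The 39 gene lists, the pairs and the call rule were chosen with earlier results of these data known, and 4 lists were trimmed of symbols of other families after their values were seen. Genes named were drawn from the 10 widest calls each way, the 2 widest calls of a list in its main direction and 1 in the other, the paralog pairs, the 5 genes brightest in all 6 arrays and the lowest marker of each tissue. Others were named after their values were seen. Alternatives were another ranking, probe set choice, filter, threshold, a log2 scale with a pseudocount of 16 and quantile normalization, pairing by letter, and leaving out each array.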

Additional observations from a re-analysis of the deposited data

Results flagged for a closer look

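For 2 of the genes named, the arrays of the lines lay on opposite sides, every testis array above the abdomen arrays in the sterile line and every testis array below them in the fertile line. The difference between the lines was not tested. Acp53C14b, an accessory gland protein gene, had a testis minus abdomen difference of 6.2 points in the sterile line and -89.4 in the fertile line. Its fertile testis intensities were all below 0, at -33.53, -32.65 and -33.23. alphaKap4, of the importin alpha family, differed by 80.1 points in the sterile and -2.2 in the fertile line, with fertile testis intensities of -49.54, -63.62 and -46.24. Both were called present on no fertile testis array.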

How the results depend on the processing

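With a threshold of 40 points, 905 genes were higher in testis and 958 in abdomen, and with 15 points 2946 and 2861. Requiring 25 points in each pair of arrays of 1 letter, as a replicate block, gave 1303 and 1413 by the rule's own stricter construction. On the log2 scale after quantile normalization, with a difference of at least 1, the counts were 2965 and 2867. Genes with a single probe set on each design gave 1659 and 1596, genes at or above the 50th percentile in a tissue 1717 and 1564, and probe sets other than those that may hit several transcripts 1879 and 1823. Leaving out 1 array gave 1985 to 2023 in testis and 1911 to 1985 in abdomen. Ranking over all probe sets gave 2561 and 1358, and the median of a gene's probe sets 2590 and 1326. Medians changed sign for somatic testis cells (4.6 with ranks over all probe sets, 4.0 with the median of probe sets, 7.4 with single probe sets, 6.0 without probe sets that may hit several transcripts), for the Malpighian tubule (0.2 and 0.7 under the first 2 of these), glutathione S-transferases (0.6), the general proteasome (0.6) and mitochondrial ribosomal proteins (-3.4 at or above the 50th percentile). Medians that lay within their spread between arrays also changed sign, for the nervous system (6.9, 6.9, 1.0 without probe sets that may hit several transcripts and 2.3 without abdomen array A), haemocytes (4.3, 6.0, 0.1 with single probe sets and 1.4 without abdomen array B), UDP-glycosyltransferases (1.1 and 2.5) and odorant-binding proteins (1.8, 1.2 and 0.9 at or above the 50th percentile), the first 2 values with ranks over all probe sets and with the median of probe sets. ChAT changed to 2.0 and PPO2 to 7.2. The causes were not tested. Of the named genes' other values, 2099 kept direction and call, 40 lost the call and 7 gained it. Of the counts of the lists, 1036 stayed within 1.5 times their value and 178 did not.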

Other observations

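The 5 genes called in opposite directions in the lines were CG18179, CG7458, CG3739, CG15253 and nau. CG18179 had fertile testis percentiles of 82.6, 83.4 and 82.9 against 51.8, 34.7 and 64.2 in abdomen, and sterile means of 0.1 in testis and 25.1 in abdomen. CG7458 had 91.0, 92.2 and 90.9 against 68.0, 53.7 and 41.0, and sterile means of 1.0 and 46.9. CG3739 differed by 26.4 points in the fertile and -42.7 in the sterile line, where its abdomen mean was 90.5. CG15253 was at 0.0 on the fertile testis arrays and at a mean of 52.9 on the sterile ones. nau, a myogenic transcription factor gene, was at 0.3 and 46.7 in the same comparison. In 4 of the 5 the testis percentile moved between the lines by more than the abdomen percentile, the exception being CG3739.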
